A study of Homo sapiens with 6 samples.

Results

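In NCI-H1650Re, neighbouring genes of the short arm of chromosome 10 (10p) were higher than in NCI-H1650, and neighbouring genes at the start of its long arm (10q11 to q21) were lower. The genes described are 59 listed genes, 45 on 10p and 14 on 10q11 to q21, of which 58 had a row among the 12659 genes of the deposited table. PRPF18 of 10p is not analysed here. The members were chosen by the FPKM differences between these same libraries, as neighbours that moved together, so the members' differences are a description. Their standard errors and calls below come from a fit across all genes and are no independent test of the members.

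NCI-H1650 is an established human lung adenocarcinoma cell line, and the labels place it before transformation (pre-LUAD). NCI-H1650Re is its derivative and is labelled as the state after transformation to small cell lung cancer (post-SCLC). Each line had 3 polyadenylated RNA libraries, replicates 1 to 3, and the labels give no drug, passage or clone for either line. The labels do not say whether the replicates were cultured separately, and the p-values and calls below rest on a spread that may be technical.

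A chromosome has a short arm, p, and a long arm, q, joined at the centromere. The genes of an arm need share no function, and those on 10p and 10q11 to q21 range from chromatin regulators to mitochondrial enzymes. Among them BMI1, a ring-finger subunit of Polycomb repressive complex 1, is known for silencing the CDKN2A locus and for self-renewal in lung epithelium, and NCOA4 delivers ferritin to autophagy. DNA copy number is not analysed here.

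Levels are FPKM, fragments scaled by transcript length and by library depth, as the authors deposited them. A log2 change is the mean of log2(FPKM + 1) in NCI-H1650Re minus that in NCI-H1650, which understates the change of low genes, and a ratio is the mean FPKM of NCI-H1650Re over that of NCI-H1650. A gene is said to be called where limma, fitted over the 11764 genes whose mean reached 1 FPKM in one or both lines, gave a Benjamini-Hochberg adjusted p under 0.05. Estimated depth was 16.998 to 22.3 M fragments per library (M, mega). With all 6 libraries 3587 genes were called, and without the replicate 3 libraries of both lines 5080. Of 11 lung epithelial markers 7 had a row, EPCAM, KRT7, KRT8 and KRT18 among them, and summed to 3493 to 4621 FPKM in NCI-H1650 and 3039 to 3083 in NCI-H1650Re. Of these 7, 4 were called lower in NCI-H1650Re and none higher. The keratin KRT19 fell from a mean of 754 to 68.7 FPKM (log2 change -3.59), and the E-cadherin gene CDH1 from 248 to 141 FPKM (-0.82). EPCAM and KRT8 fell by less (-0.50 and -0.46). KRT7 (means of 800 and 1012 FPKM, log2 change 0.35) and KRT18 (783 and 846 FPKM, 0.13) were at higher means in NCI-H1650Re. MUC1 was at a lower mean (-0.43), and KRT7, KRT18 and MUC1 were not called. NKX2-1, NAPSA, SFTPB and SFTPC had no row, and absence from the table does not show a lack of expression. Likewise 7 of 10 small cell and neuroendocrine markers, among them NEUROD1 and INSM1, had no row. Summed over the 3 with a row (CHGA, SYP and DLL3), these markers were at 4.47 to 5.59 FPKM in NCI-H1650 and 7.48 to 11.2 in NCI-H1650Re, and only CHGA (means of 0.563 and 3.39) was called higher. CHGA entered the fit only through its level in NCI-H1650Re, so its call could go in 1 direction only. None of 4 endothelial markers and 1 of 6 immune markers (CD14, at a mean of 1.56 and 0.197 FPKM) had a row. Of 7 fibroblast markers 3 had one, summing to 20.6 to 23.8 FPKM in NCI-H1650 and 34.5 to 51.2 in NCI-H1650Re. Of these COL3A1 was called higher, at means of 10.1 and 32.5 FPKM, while COL1A1 (1.01 and 1.96) and PDGFRA (10.8 and 10.9) were not called. The part of other cells in the values below was not tested.

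The stretches of sequence just before the starts of 6 members show what kind of promoter stands at these genes. They are 150 bases each, from RefSeq (GRCh38.p14), taken before the most upstream RefSeq start and written 5′ to 3′ on the gene's own strand. Capitals mark matches, on either strand, to the GC box GGGCGG, the ETS core CCGGAAG, the CCAAT box and the palindromic NRF1 motif. BMI1, UPF2 and KIN stand for the raised arm, and HNRNPF, CSTF2T and BMS1 for the lowered one.
BMI1: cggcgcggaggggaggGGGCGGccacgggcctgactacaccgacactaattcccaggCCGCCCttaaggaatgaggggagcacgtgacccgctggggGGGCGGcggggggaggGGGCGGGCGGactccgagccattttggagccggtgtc
UPF2: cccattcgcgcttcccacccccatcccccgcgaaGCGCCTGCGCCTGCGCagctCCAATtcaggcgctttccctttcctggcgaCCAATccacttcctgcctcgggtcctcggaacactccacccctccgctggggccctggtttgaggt
KIN: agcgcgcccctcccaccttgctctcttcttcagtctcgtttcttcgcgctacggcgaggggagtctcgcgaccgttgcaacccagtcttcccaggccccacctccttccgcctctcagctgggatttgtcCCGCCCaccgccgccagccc
HNRNPF: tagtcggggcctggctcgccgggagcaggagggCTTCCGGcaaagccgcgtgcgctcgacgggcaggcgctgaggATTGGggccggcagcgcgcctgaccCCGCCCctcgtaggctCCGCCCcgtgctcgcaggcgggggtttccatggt
CSTF2T: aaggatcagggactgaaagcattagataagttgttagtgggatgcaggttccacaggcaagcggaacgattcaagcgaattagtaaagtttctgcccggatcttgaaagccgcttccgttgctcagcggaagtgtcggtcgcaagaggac
BMS1: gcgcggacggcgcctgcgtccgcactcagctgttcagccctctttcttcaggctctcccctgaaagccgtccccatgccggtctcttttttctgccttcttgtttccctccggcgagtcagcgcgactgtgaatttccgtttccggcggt
They lie at chr10:22320949-22321098 (plus strand), chr10:12043171-12043320 (minus), chr10:7787994-7788143 (minus), chr10:43408858-43409007 (minus), chr10:51699596-51699745 (minus) and chr10:42782645-42782794 (plus). The stretch of BMI1 held 5 matches to the GC box, with 2 of them overlapping, and none to the other 3 motifs. That of UPF2 held 2 overlapping NRF1 matches and 2 CCAAT boxes, and that of KIN a single GC box. The stretch of HNRNPF lies inside the gene as GENCODE places it, whose start is 309 bases upstream of the RefSeq start used. It had an ETS core, a CCAAT box and 2 GC boxes. CSTF2T, an intronless copy of a polyadenylation factor gene, and BMS1 had none of the 4 motifs in their 150 bases.

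Over windows from 250 bases before to 50 after the start, promoters of both arms were rich in CpG. The median number of CpG was 31 in 41 promoters of 10p members and 30 in 14 of 10q11 to q21, against 27 in 8766 promoters of all tested genes with one. An NRF1 match was in 11 of 41 promoters of 10p (26.8%), 3 of 14 of 10q11 to q21 (21.4%) and 12.02% of those of all tested genes. The ETS core was in 24.4%, 21.4% and 19.7%, the CCAAT box in 26.8%, 28.6% and 36.8% and the GC box in 70.7%, 85.7% and 71.9%, respectively. The CpG counts and the NRF1, ETS core and CCAAT box shares of both arms thus lay on the same side of those of all tested genes. The GC box share was below it on 10p and above it on 10q11 to q21. No test was made of these shares, and a match is not a shown binding site.

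The members of 10p lay between ASB13 and ZNF438, a stretch of 25.4 Mb (GRCh38, 5638867 to 31031937), and those of the long arm between BMS1 and CCDC6, a stretch of 17.1 Mb (42782801 to 59906656). All 44 tested members of 10p had a log2 change above 0, with a median of 0.39 and a range from 0.02 to 0.91. All 13 tested members of 10q11 to q21 had one below 0, with a median of -0.49 and a range from -0.72 to -0.26. Over all 11764 genes the median was 0.03. As ratios, the medians were 1.34 for 10p, with quartiles of 1.28 and 1.59, and 0.654 for 10q11 to q21, with quartiles of 0.621 and 0.734.

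The counts of calls and of non-overlapping lines, here and in the role groups below, were set by the choice of the members on these values, and nothing is read from them. Of the 10p members 34 of 44 were called higher, and 16.6% of all genes were. Of the 10q11 to q21 members 10 of 13 were called lower, and 13.9% of all genes were. Changes above 0 were those of 54.9% of all genes and changes below 0 those of 45.1%. The lines did not overlap for 39 of the 44 members of 10p, all with NCI-H1650Re above, nor for any of the 13 of 10q11 to q21, all with NCI-H1650Re below. Over all genes they did not overlap for 47.2%, with NCI-H1650Re above for 3091 and below for 2465 of 11764. Without both replicate 3 libraries 34 members of 10p were called higher (23.7% of all genes) and 13 of 10q11 to q21 lower (19.4%). Without NCI-H1650 replicate 2 the members called lower on 10q11 to q21 numbered 6, while calls over all genes went from 3587 to 1785.

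**Figure D1:**
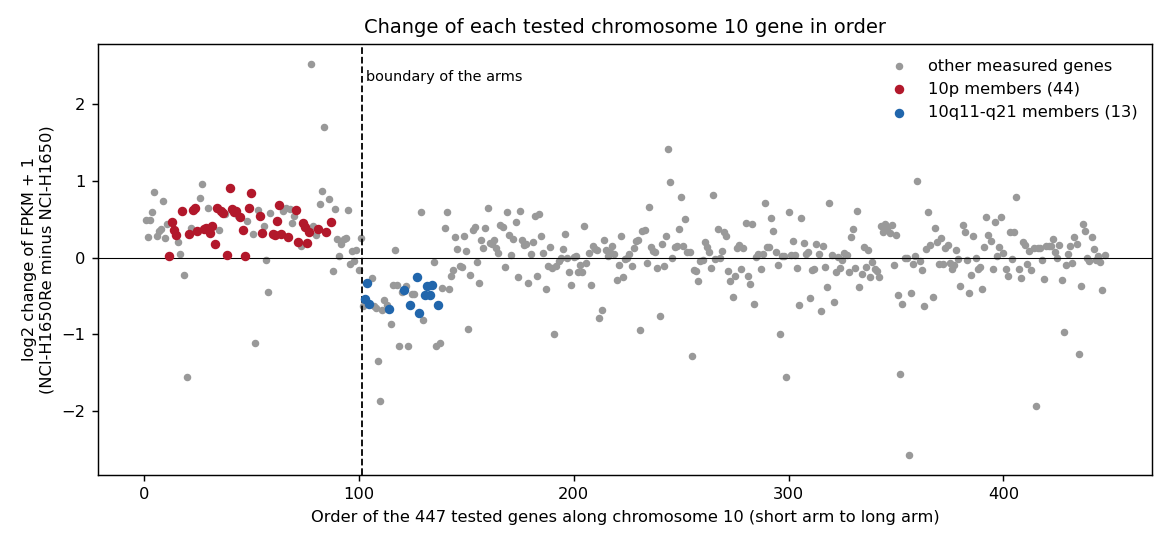
Log2 change of each of the 447 tested genes of chromosome 10 (vertical axis, difference of log2(FPKM + 1), NCI-H1650Re less NCI-H1650) in their order along the chromosome (horizontal axis), with the 44 members of 10p in red, the 13 of 10q11 to q21 in blue, other genes in grey and the boundary of the arms as a dashed line. Members and their grey neighbours lie above 0 on most of 10p, below 0 just after the boundary, and around 0 farther along the long arm, where the median was 0.04.

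The 2 arms moved apart by a similar amount in each NCI-H1650Re library. Against each gene's mean in NCI-H1650, the median over the 10p members was 0.40, 0.41 and 0.44 in NCI-H1650Re replicates 1, 2 and 3, and that over the 10q11 to q21 members was -0.53, -0.53 and -0.52. The medians of the NCI-H1650 libraries stayed between -0.04 and 0.04 on 10p and between -0.08 and 0.05 on 10q11 to q21. The summed level of the 44 members of 10p was 799, 763 and 769.8 FPKM in NCI-H1650 and 1056, 1033 and 1084 FPKM in NCI-H1650Re. That of the 13 members of 10q11 to q21 was 184, 179.9 and 168 in NCI-H1650 and 114, 117 and 115 in NCI-H1650Re. HNRNPF alone gave 72.2 to 77.2 FPKM of these sums in NCI-H1650 and 46.3 to 50.5 in NCI-H1650Re. The summed level of 10p over that of 10q11 to q21 was 4.24 to 4.59 in the parental libraries and 8.80 to 9.43 in the derivative. The choice of members set the direction of this difference, and nothing is read from it. Replicate 3 of NCI-H1650 was below its line's mean for all 13 members of 10q11 to q21. NCI-H1650Re replicate 3 had medians close to those of the other 2 libraries of its line on both arms.

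**Figure D2:**
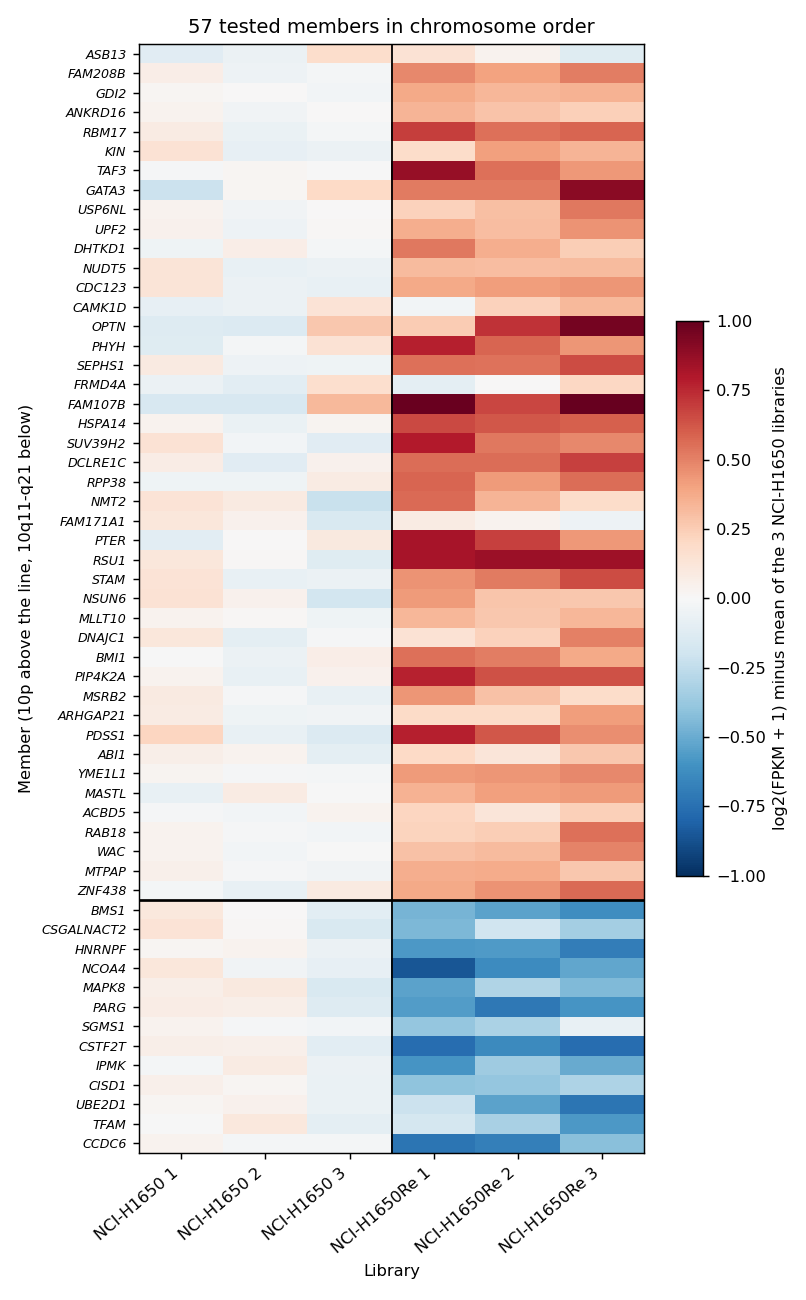
Heat map of the 57 tested members (rows, in chromosome order, 10p above the black line) in the 6 libraries (columns), coloured by log2(FPKM + 1) minus the mean of the 3 NCI-H1650 libraries, with red higher and blue lower. The 3 NCI-H1650Re columns are red for most 10p members and blue for all 13 members of 10q11 to q21, while ASB13, FRMD4A and FAM171A1 are pale throughout.

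Chromatin and transcription genes of 10p were called higher in 8 of 8 members, with ratios from 1.27 to 1.86. BMI1 (chromosome 10, 22321211 to 22331484, GRCh38, plus strand) was at 18.3, 17.6 and 19.3 FPKM in the libraries of NCI-H1650 (replicates in order) and at 27.4, 26.6 and 24.2 FPKM in the NCI-H1650Re libraries (log2 change 0.48, SE 0.07, n = 3 per line). Its lowest NCI-H1650Re library lay above its highest NCI-H1650 library. BMI1 shares a readthrough transcript with its neighbour COMMD3, so reads of the 2 genes may be mixed. SUV39H2, a histone H3 lysine 9 methyltransferase of heterochromatin, was at 6.56, 5.69 and 5.3 FPKM in NCI-H1650 and at 10.8, 8.83 and 8.52 in NCI-H1650Re (ratio 1.61). GATA3, a zinc-finger transcription factor of luminal epithelia and T cells, was at 14.6, 17.4 and 19.8 FPKM in NCI-H1650 and at 25.03, 25.03 and 32.9 in NCI-H1650Re (log2 change 0.65, SE 0.14), and replicate 3 was the highest library of each line. MLLT10, a cofactor of the histone methyltransferase DOT1L, was at 9.93, 9.77 and 9.38 FPKM in NCI-H1650 and at 12.4, 11.9 and 12.5 in NCI-H1650Re, the smallest ratio of this group (1.27). TAF3, a subunit of the general factor TFIID, had a ratio of 1.68, WAC, an adaptor for histone H2B ubiquitination, 1.301, and FAM208B, a relative of the silencing-complex protein TASOR, 1.41. The zinc-finger gene ZNF438, last of the 10p members by position, was at 0.760, 0.690 and 0.900 FPKM in NCI-H1650 and at 1.31, 1.43 and 1.64 in NCI-H1650Re. It entered the fit only through its level in NCI-H1650Re, since its NCI-H1650 mean was under 1 FPKM, so its call could go in 1 direction only.

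RNA-processing genes lay on both arms. On 10p, 4 of 6 were called higher and the other 2, the nucleic acid binding KIN (1.38) and the RNA methyltransferase NSUN6 (1.31), did not pass. On 10q11 to q21, 3 of 3 were called lower. UPF2, a core factor of nonsense-mediated decay, was at 13.9, 12.96 and 13.6 FPKM in NCI-H1650 and at 17.6, 16.9 and 18.7 in NCI-H1650Re (log2 change 0.37, SE 0.07), and the splicing factor RBM17 had a ratio of 1.54. RPP38, a protein subunit of RNase P, had a ratio of 1.47, and MTPAP, the mitochondrial poly(A) polymerase, 1.32. HNRNPF, a splicing regulator, was the most abundant member of 10q11 to q21, at 76.3, 77.2 and 72.2 FPKM in the libraries of NCI-H1650 (replicates in order) and at 50.1, 50.5 and 46.3 FPKM in the NCI-H1650Re libraries (log2 change -0.61, SE 0.07). All 3 NCI-H1650Re libraries lay well below the lowest of NCI-H1650. CSTF2T, which encodes a form of the cleavage stimulation factor that acts in polyadenylation, had the largest log2 change among the 13 tested members of its arm, at 7.34, 7.31 and 6.45 FPKM in NCI-H1650 and at 3.74, 4.17 and 3.72 in NCI-H1650Re (log2 change -0.72, SE 0.08). BMS1, a GTPase of ribosome assembly and the first of the 10q11 to q21 members, was at 10.9, 10.03 and 9.23 FPKM in NCI-H1650 and at 6.97, 6.6 and 6.15 in NCI-H1650Re (ratio 0.654). HNRNPF, CSTF2T, BMS1 and PARG have close relatives or pseudogene copies, so their FPKM are uncertain to that extent.

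Genes of genome maintenance and division were called higher in 4 of 4 members on 10p. DCLRE1C, the Artemis nuclease of end joining, had a ratio of 1.69, and MASTL, the Greatwall kinase of mitotic entry, 1.33. CDC123, an assembly factor of the initiation factor eIF2, had 1.33, and NUDT5, an ADP-ribose hydrolase, 1.25. PARG on 10q11 to q21, which removes poly(ADP-ribose), was at 7.23, 7.14 and 6.17 FPKM in NCI-H1650 and at 4.32, 3.77 and 4.19 in NCI-H1650Re (log2 change -0.62, SE 0.09). The 2 enzymes of ADP-ribose metabolism, NUDT5 and PARG, thus lay on opposite arms, whose members were chosen for opposite directions.

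Among mitochondrial, peroxisomal and other metabolic genes 7 of 9 members on 10p were called higher, and 1 of 4 on 10q11 to q21 lower. PTER, which encodes a phosphotriesterase-related protein, was at 3.86, 4.24 and 4.58 FPKM in NCI-H1650 and at 8.24, 7.4 and 6.04 in NCI-H1650Re (log2 change 0.65, SE 0.11). PDSS1, which makes the side chain of coenzyme Q, had a ratio of 1.64, PHYH, the peroxisomal phytanoyl-CoA hydroxylase, 1.55, SEPHS1 1.51 and YME1L1, a protease of the mitochondrial inner membrane, 1.37. DHTKD1 (1.32) and the methionine sulfoxide reductase MSRB2 (1.27) were also called. ACBD5 (1.15) and the myristoyltransferase NMT2 (1.31) did not pass. TFAM, the packaging and transcription factor of mitochondrial DNA, was at 5.95, 6.5 and 5.51 FPKM in the libraries of NCI-H1650 (replicates in order) and at 5.19, 4.57 and 3.69 FPKM in the NCI-H1650Re libraries, and was not called (log2 change -0.36, SE 0.11). The lines did not overlap, but the highest NCI-H1650Re library came close to the lowest of NCI-H1650. CISD1, an iron-sulfur protein of the outer mitochondrial membrane, was called, with means of 5.33 ± 0.276 and 3.91 ± 0.164 FPKM (SD, n = 3 per line). SGMS1, a sphingomyelin synthase, was at 5.7, 5.5 and 5.44 FPKM in NCI-H1650 and at 4.01, 4.26 and 5.23 in NCI-H1650Re and CSGALNACT2, of chondroitin sulfate synthesis, at 5.11, 4.6 and 3.99 FPKM in NCI-H1650 and at 3.07, 3.84 and 3.38 in NCI-H1650Re. These 2 had the smallest log2 changes among the 13 tested members of the lowered arm (-0.26 and -0.33) and did not pass.

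Of the 11 members of 10p in membrane traffic, autophagy and the cytoskeleton 8 were called higher. FAM107B had the largest log2 change among the tested members of both arms. It was at 4.69, 4.72 and 6.96 FPKM in the libraries of NCI-H1650 (replicates in order) and at 11.6, 9.14 and 12.5 FPKM in the NCI-H1650Re libraries (log2 change 0.91, SE 0.16). RSU1, an adhesion protein that binds the integrin-linked PINCH complex, was at 18.2, 16.97 and 15.3 FPKM in NCI-H1650 and at 30.4, 31.2 and 31.1 in NCI-H1650Re (log2 change 0.84, SE 0.08), and its NCI-H1650Re libraries lay close together, all above those of NCI-H1650. OPTN, an autophagy receptor for mitochondria and bacteria, was at 12.97, 12.9 and 17.4 FPKM in NCI-H1650 and at 17.3, 24.2 and 28.6 in NCI-H1650Re (log2 change 0.65, SE 0.19). It was the 1 member called higher whose lines overlapped, as NCI-H1650Re replicate 1 lay below NCI-H1650 replicate 3. GDI2, a Rab recycling factor and the most abundant member of 10p, had means of 114 ± 1.86 and 146 ± 2.54 FPKM. STAM, of endosomal sorting, had a ratio of 1.48, USP6NL, an activator of Rab5 hydrolysis, 1.35, RAB18 1.29 and ARHGAP21, a GTPase-activating protein, 1.21. ABI1, a subunit of the WAVE complex, did not pass (1.15). On the lowered arm, NCOA4 (chromosome 10, 46005088 to 46030714, GRCh38, minus strand) was at 36.9, 33.1 and 32.03 FPKM in NCI-H1650 and at 18.3, 21.6 and 23.4 in NCI-H1650Re (log2 change -0.67, SE 0.10), with no overlap between lines.

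Signalling, ubiquitin and chaperone genes were called higher in 3 of 6 members on 10p and lower in 4 of 4 tested on 10q11 to q21. PIP4K2A, a phosphatidylinositol phosphate kinase, was at 8.64, 7.93 and 8.68 FPKM in NCI-H1650 and at 15.1, 13.6 and 13.6 in NCI-H1650Re (log2 change 0.68, SE 0.07), the ribosome-associated chaperone HSPA14 had a ratio of 1.59 and ANKRD16 of 1.298. The kinase CAMK1D (1.19) and the co-chaperone DNAJC1 (1.24) did not pass. MAPK8, the stress kinase JNK1, was at 3.54, 3.65 and 2.91 FPKM in the libraries of NCI-H1650 (replicates in order) and at 2.01, 2.53 and 2.2 FPKM in the NCI-H1650Re libraries (log2 change -0.43, SE 0.10). CCDC6, known as a fusion partner of RET in thyroid cancer and last of the lowered members by position, was at 12.6, 12.1 and 12.1 FPKM in NCI-H1650 and at 6.99, 7.27 and 8.94 in NCI-H1650Re (log2 change -0.61, SE 0.09). The inositol kinase IPMK (0.576) and the ubiquitin-conjugating enzyme UBE2D1 (0.6598) were called lower too. RASSF4 stayed under 1 FPKM on average in each line and was not tested. Its deposited counts were 26, 27 and 17 in NCI-H1650 and 10, 10 and 3 in NCI-H1650Re. It was the only member that the authors' deposited table marked as regulated, with a log2 fold change of -1.66 there. In the authors' deposited table the median log2 fold change was 0.40 over the 44 members of 10p, 2 of them below 0, and -0.65 over the 14 of 10q11 to q21, all below 0.

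**Figure D3:**
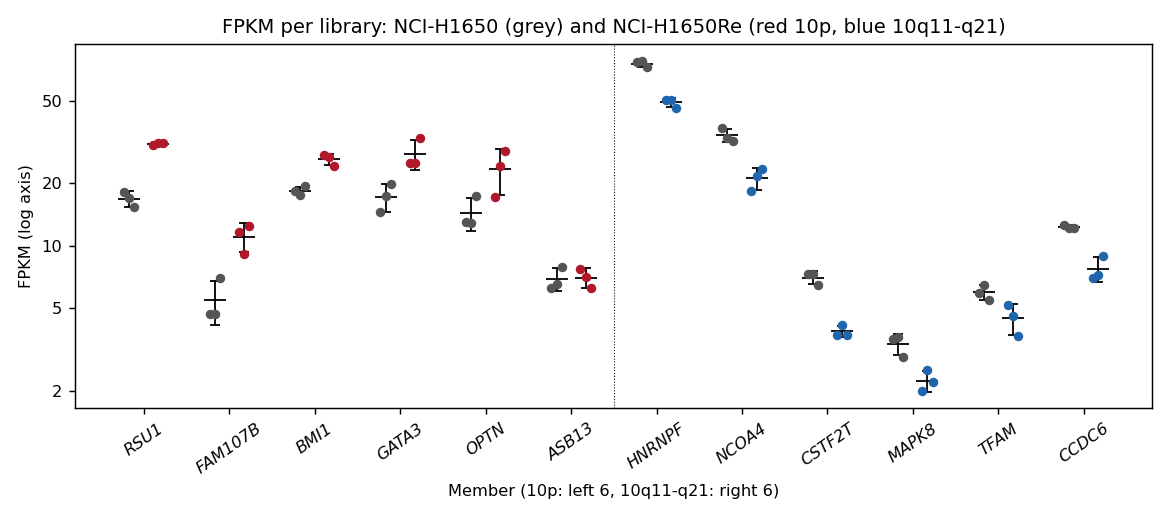
FPKM of 6 members of 10p (left) and 6 of 10q11 to q21 (right) in each library (points, vertical log axis), NCI-H1650 in grey and NCI-H1650Re in colour, with the mean and SD of the 3 libraries of a line in black. The 2 lines are apart for RSU1, BMI1 and all 6 members of the lowered arm, and overlap for OPTN and ASB13.

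The smallest log2 changes among the 10p members were those of ASB13, FAM171A1 and FRMD4A. ASB13, a SOCS-box protein and the first member by position, was at 6.29, 6.58 and 7.94 FPKM in NCI-H1650 and at 7.75, 7.1 and 6.26 in NCI-H1650Re, with a log2 change of 0.02 (SE 0.11). FAM171A1 was at 23.04, 21.8 and 18.95 FPKM in NCI-H1650 and at 22.5, 21.7 and 20.4 in NCI-H1650Re (0.02, SE 0.09), and FRMD4A, a scaffold protein of cell junctions, had a log2 change of 0.04 (SE 0.12). The lines overlapped for all 3, and the sign of each turned under some settings, such as median-of-ratios scaling for ASB13 and FAM171A1.

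Genes that were not on the list filled the rest of each stretch. Over all tested genes 16.6% were called higher and 13.9% lower. Between ASB13 and ZNF438 lay 32 other tested genes, of which 19 were called higher, 3 lower and 10 not, with a median log2 change of 0.51. The largest rises were those of the homeobox gene MKX (2.53), JCAD, a junction protein (1.71), and PROSER2 (0.95), and the 3 falls were those of ITIH5 (-1.55), the sialyltransferase ST8SIA6 (-1.11) and NEBL (-0.45). The levels of VIM, the gene of the filament protein vimentin, were 45.1, 44.03 and 16.6 FPKM in NCI-H1650 and 57.6, 72.3 and 15.01 in NCI-H1650Re. It did not pass, with both replicate 3 libraries below the other 4. Between BMS1 and CCDC6 lay 22 others, of which 17 were called lower, none higher and 5 not, with a median of -0.59. The largest falls were those of ZNF22 (-1.87), DEPP1 (-1.35) and the annexin ANXA8 (-1.16), which has near-identical copies nearby. The 2 above 0 were the WNT inhibitor DKK1 (0.59) and PTPN20 (0.10), and neither passed. The members therefore cover 44 of 76 tested genes of the first stretch and 13 of 35 of the second, and they leave out the genes with the largest changes in both. Any of these genes with a mean under 1 FPKM in 1 line entered the fit only through the other line. Its call could go in 1 direction only. Among the 32 other genes of the first stretch, the lowest mean in NCI-H1650 was 0.247 FPKM.

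The edges of the shifts lay outside the lists. Before ASB13, 11 of 11 tested genes of 10p had a log2 change above 0 and 9 were called higher, from ZMYND11 at the tip of the arm (0.49) to AKR1E2 (0.25, not called) and NET1 (0.44), the nearest to the first member. After ZNF438 the next measured genes were ARHGAP12 (-0.17, not called) and KIF5B (0.63, called higher). In the 14 tested genes from there to the boundary of the arms the median was 0.14, with 4 called higher and none lower. Across the boundary, the last measured gene of 10p, AL117339.5, had a log2 change of 0.25 (not called), and ZNF33B, the first of the long arm, one of -0.64 (called lower). Beyond CCDC6, ANK3 was lower (-1.11, called) and CDK1 did not pass (-0.40). Over the 310 tested genes from there to the end of the chromosome 57 were called higher and 37 lower, with a median of 0.04. For the counts of calls in each of these stretches, the shares over all tested genes were 16.6% higher and 13.9% lower.

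In steps of 10 Mb along the chromosome (GRCh38), the median log2 change was 0.36 up to 10 Mb, 0.52 from 10 to 20 Mb, 0.43 from 20 to 30 Mb and 0.24 from 30 to 40 Mb. It was -0.61 from 40 to 50 Mb over 24 tested genes, 23 of them below 0, and -0.48 from 50 to 60 Mb over 12 genes, 11 of them below 0. From 60 Mb onwards the step medians lay between -0.04 and 0.12. The step medians were above 0 up to 40 Mb, where the arms were split, and below 0 from there to 60 Mb. These steps hold the members, whose directions were set by their choice. Without the members, the median was 0.39 over the other 57 tested genes of 10p. It was -0.59 over the other 22 between BMS1 and CCDC6.

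**Figure D4:**
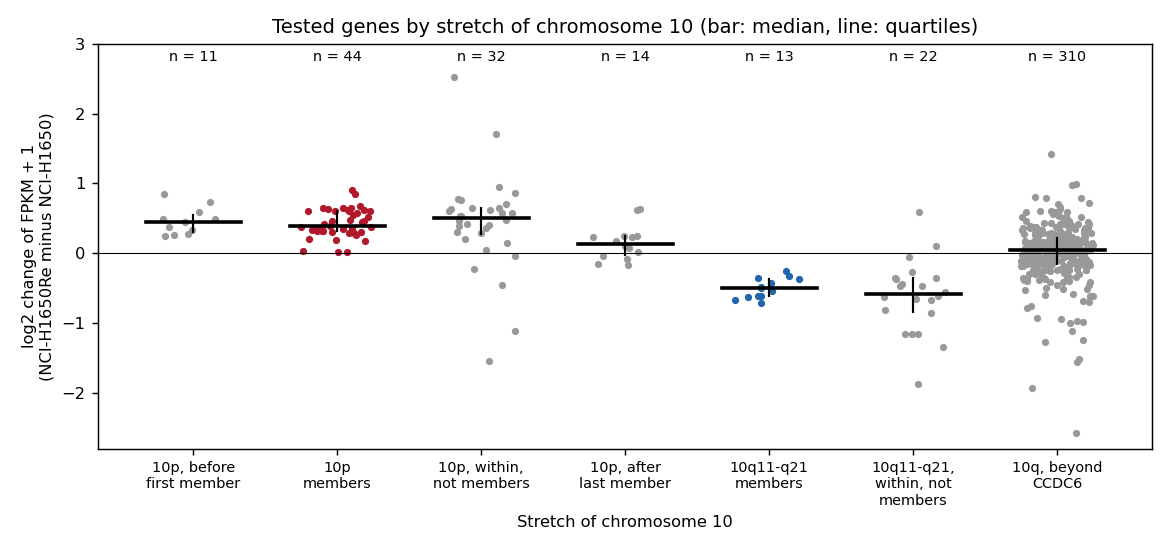
Log2 change (vertical axis, difference of log2(FPKM + 1), NCI-H1650Re less NCI-H1650) of tested genes in 7 stretches of chromosome 10 (horizontal axis), each point a gene, with the median as a bar, the quartiles as a line and the members in colour. The medians are above 0 before, within and after the 10p members, below 0 in the 10q11 to q21 stretch for members and others alike, and 0.04 beyond CCDC6.

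Members that start next to another measured gene were compared with that neighbour. By GENCODE gene starts, KIN and ANKRD16 were among the members with a measured gene on the opposite strand starting within 1000 bases before their own start, and neither neighbour was on the list. KIN (0.31) and ATP5F1C (0.39), a subunit of ATP synthase, start 147 bases apart, and the KIN stretch printed above covers most of the space between them. ANKRD16 (0.29) and the helicase gene FBXO18 (0.21) have 296 bases between their starts. Both genes of these pairs had a log2 change above 0. KIN and ANKRD16 were chosen for that direction, and 48 of the 57 tested genes of 10p that were not members had it too. The shared sign therefore cannot show whether the genes of a pair are linked.

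Several members act with genes of other chromosomes, and those partners were counted in the same fit, where 16.6% of all genes were called higher and 13.9% lower. Of 16 tested PRC1 subunits other than BMI1 2 were called higher and none lower (median log2 change 0.08). PHC2 was at 18.3 ± 0.6096 and 25.6 ± 2.31 FPKM (log2 change 0.46, limma adjusted p = 0.00575) in NCI-H1650 and NCI-H1650Re and PCGF2 at 17.3 ± 0.349 and 20.8 ± 1.14 FPKM (log2 change 0.26, limma adjusted p = 0.0251). Among 10 partners of heterochromatin around SUV39H2 and FAM208B 4 were called higher and 1 lower (median 0.03). CBX5, the reader HP1 alpha, had a log2 change of 0.50, SUV39H1 0.44, CBX1 0.33 and MORC2 0.29, and the methyltransferase EHMT2 fell (-0.42).

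Of 13 other genes of nonsense-mediated decay 5 were called higher and 1 lower (median 0.24). SMG8 (0.56), SMG9 (0.47), SMG5 (0.35), UPF3B (0.32) and CASC3 (0.24) were higher. The kinase SMG1, of chromosome 16, was at 25.4 ± 0.773 and 16.7 ± 0.887 FPKM (log2 change -0.58, limma adjusted p = 0.00124). Of 12 tested genes of mitochondrial DNA expression other than TFAM 1 was called higher, TOP1MT (0.55), and none lower (median 0.08). Of 12 tested ferritin and autophagy genes 2 were called higher, MAP1LC3B (0.67) and CALCOCO2 (0.61), and 2 lower, GABARAPL2 (-0.95) and NBR1 (-0.32), with a median of 0.10. Like SMG1, MAP1LC3B and GABARAPL2 lie on chromosome 16, where 44.8% of tested genes were called lower and 17.1% higher. The ferritin heavy chain FTH1, the cargo of NCOA4, was at 3127 ± 246 and 2744 ± 292 FPKM (log2 change -0.19, limma adjusted p = 0.186) and did not pass. The light chain FTL was at 518 ± 39.2 and 725 ± 184 FPKM (log2 change 0.46, limma adjusted p = 0.0666), with a change in the other direction that did not pass either. In the JNK module around MAPK8 1 of 11 was called higher, MAPK8IP3 (0.27), and 2 lower, MAP3K1 (-0.57) and DUSP10 (-0.54), with a median of -0.07. MAPK8IP3 also lies on chromosome 16. MAP3K1 lies on chromosome 5, where 34.1% of tested genes were called lower and 9.36% higher.

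The choice of members did not use gene length or strand. The median gene span was 60.9 kb on 10p, 46.8 kb on 10q11 to q21 and 32.7 kb over all tested genes with a position. The strands were mixed, with 20 plus and 24 minus on 10p and 6 plus and 7 minus on 10q11 to q21. From the FPKM values that also chose the members, as a description, the median level over the 6 libraries was 16.1 FPKM on 10p and 5.23 on 10q11 to q21, against 9.74 over those genes. The median coefficient of variation of 10p members was 6.32% in NCI-H1650 and 7.58% in NCI-H1650Re, that of 10q11 to q21 members 7.48% and 11.7%, and that of all tested genes 7.45% and 9.03%. OPTN and UBE2D1 varied most in NCI-H1650Re, by 24.5% and 23.9%.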

How the data were processed

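Polyadenylated RNA of 2 cell lines was sequenced in 3 libraries each. FPKM values of 12659 genes were computed by the authors and deposited. The deposited read counts cover the 860 genes marked as regulated and were used for depth and RASSF4. The FDR, an adjusted p-value, and the log2 fold change are the authors' own, per the file headers. RSEM, DESeq2, HISAT2 and Bowtie2 are named in the submitters' processing notes, with the mouse build mm10, although the identifiers are human; which human build was used is not given in the sources.

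The 11764 genes whose mean reached 1 FPKM in one or both lines were fitted with limma 3.58.1 (R 4.3.3) on log2(FPKM + 1) with a variance trend and the line as the only term. P-values were adjusted by Benjamini-Hochberg over all 11764. Depth came from the ratio of counts to FPKM, over 205 genes for the ratio between libraries and 10 with a single transcript for the level. Positions came from GENCODE 29 (GRCh38), matched by Ensembl identifier for 94.1% of genes, with the arms split at 40 Mb. Promoters came from RefSeq (GRCh38.p14) and were found for 55 of 58 members, FAM208B under its newer symbol. Of several starts, the promoter nearest the GENCODE start was counted for motifs and CpG, and the printed stretches precede the most upstream one. For some members even the nearest start was far from the GENCODE start, so the window counted does not cover it. The distance was 25170 bases for MTPAP, 28176 for PARG, 28698 for GDI2, 39500 for CAMK1D and 453592 for FRMD4A.

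Members, role groups and partner lists were chosen with earlier results of these data known. Every member is named, and library values are given for those with the largest and smallest changes, those at the ends and a fixed few. Neighbours named are the nearest 2 outside each end, VIM, MKX and the 3 largest changes each way among the other genes of each stretch. ZMYND11 at the tip of 10p, FTH1, FTL, KRT19, CDH1, COL3A1, the genes whose sequences are printed and those plotted singly were picked with their values in view. Pairs of opposite genes were taken from GENCODE starts, a choice made after RefSeq starts, which paired NUDT5 with CDC123, had been seen, and a further pair is not reported here. PRPF18 had no row. The fit was tested on simulated data. Figures used Python 3.11.15 and matplotlib 3.10.9.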

Additional observations from a re-analysis of the deposited data

How the results depend on the processing

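The 15 other settings were a pseudocount of 0.1 or 0.01, the fit with no filter or one at 5 FPKM, median-of-ratios scaling, quantile normalization, a replicate block, no variance trend, each library left out in turn and both replicate 3 libraries left out. The medians of both arms kept their sign under all 15. The 10p median moved from 0.39 to 0.42 with a pseudocount of 0.01 and 0.35 with quantile normalization. The 10q11 to q21 median moved from -0.49 to -0.61 with a pseudocount of 0.1, -0.62 with 0.01 and -0.61 with the filter at 5 FPKM, where 9 members remained tested. The difference between the arms' medians moved from 0.88 to 1.03, 1.04 and 1.02 in these settings. The median of the other 10p genes moved from 0.39 to 0.29 with no filter, 0.48 with the filter at 5 FPKM, 0.36 with median-of-ratios scaling and 0.36 with quantile normalization. That of the other 10q11 to q21 genes moved from -0.59 to -0.67 and -0.70 with the lower pseudocounts and to -0.44 with no filter. Beyond CCDC6 the median moved from 0.04 to 0.015 with median-of-ratios scaling and 0.018 with quantile normalization. The cause of these shifts was not tested, except that lower pseudocounts act on low genes by construction.

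With 1 library left out in turn, the 10p median lay between 0.38 and 0.41, the 10q11 to q21 median between -0.55 and -0.47 and their difference between 0.88 and 0.97. The other 10p genes had medians between 0.37 and 0.43. Members called higher on 10p numbered 23 to 34 and those called lower on 10q11 to q21 6 to 11, with 6 without NCI-H1650 replicate 2. Calls over all genes numbered 1785 to 4478 in these settings, with 1785 without NCI-H1650 replicate 2. Over the members and the 15 settings, 817 log2 changes moved by less than the spread between replicates and 27 by more. Members that were not called changed sign in some settings: ASB13 with median-of-ratios scaling and without NCI-H1650 replicate 1 or 2 or NCI-H1650Re replicate 1; FRMD4A without NCI-H1650 replicate 2 or NCI-H1650Re replicate 3; FAM171A1 with either scaling, without NCI-H1650 replicate 3 or NCI-H1650Re replicate 1, and without both replicate 3 libraries.

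With a replicate block 35 members of 10p were called higher and 11 of 10q11 to q21 lower, and 3522 of all genes were called. The medians do not change under the block. Same-numbered libraries correlated in their deviations at 0.17, -0.04 and 0.21 for replicates 1, 2 and 3, so the numbers were not taken to pair the samples, and replicate 1 and replicate 2 of NCI-H1650Re did not correlate best with their own number. No tested member that was called changed sign in any setting. Of 44 calls on members, 29 were kept without NCI-H1650 replicate 2 and 43 without both replicate 3 libraries, where 4 were gained. Calls over all genes went from 3587 to 1785 and 5080 in these settings, respectively. RASSF4, the only member with deposited counts, had 3 to 27 counts per library, so counting error is large for it; for the other members the counts behind the FPKM are unknown.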
